A study of Mus musculus with 4 samples.

Results

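*Osr1* and *Osr2* are the members of the odd-skipped related family in the mouse, and they were taken by their symbols from the counts of 23284 genes, of which they are 2. RNA was sequenced from live GFP+ cells, collected by FACS out of limbs of C57BL/6J embryos at E13.5, with 2 samples of genotype *Osr1* GCE/+ and 2 of genotype *Osr1* GCE/GCE, each from 1 embryo. GCE is a knock-in at *Osr1* that makes eGFP and the tamoxifen-inducible recombinase CreERt2, so that GCE/+ cells hold 1 unmodified *Osr1* allele and GCE/GCE cells hold none. All 4 samples carry GCE, with 1 copy in GCE/+ cells and 2 in GCE/GCE cells. They were sorted by its GFP, so the cells were gated by the activity of the same locus whose RNA is described here. Cells with 2 unmodified alleles were not analysed here, so the step from 2 alleles to 1 has no value in these data. Which exons the knock-in replaces is not given in the sources used here, and RNA of the GFP reporter itself was not analysed here.

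Odd-skipped proteins are zinc finger transcription factors named after a pair-rule gene of *Drosophila*. In vertebrates *Osr1* is among the earliest genes of the intermediate mesoderm and is needed for kidney and heart development, while *Osr2* is known for its part in the growth of the secondary palate and in tooth patterning. Both are expressed in limb mesenchyme, where they mark irregular connective tissue and developing joints.

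The paralogs were compared in sequence first, since similar genes can share reads. By the GENCODE annotation of GRCm38, *Osr1* (ENSMUSG00000048387) lies on the plus strand of chromosome 12, and its main transcript runs from 9574441 to 9581500 in 3 exons, with 2012 bases of which 798 are coding, in exons 2 and 3. *Osr2* (ENSMUSG00000022330) lies on the plus strand of chromosome 15 from 35296098 to 35303305, and its main transcript has 4 exons and 1724 bases of which 828 are coding. The encoded proteins have 266 and 276 residues, and 181 of 258 aligned residues (70.2%) were identical. The coding sequence of each main transcript held 3 C2H2 zinc finger patterns, a DNA-binding motif. Over the 77 residues from the first of these fingers to the last, the paralogs were identical in protein. Of the 231 bases that encode them 187 (81.0%) were the same.

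The coding sequences of fingers 2 and 3 are shown because they are where the genes are most alike and where reads could be confused, and the capitals mark bases that differ between the paralogs. They come from the GENCODE transcripts of GRCm38 and are written 5′ to 3′ on the plus strand. In either gene finger 2 is spliced from exons 2 and 3, between chr12:9579741-9580499 in *Osr1* and between chr15:35300903-35301921 in *Osr2*. Finger 3 lies in exon 3, at chr12:9580521-9580583 and chr15:35301943-35302005.
Osr1 finger 2: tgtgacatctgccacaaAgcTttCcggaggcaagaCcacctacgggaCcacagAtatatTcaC
Osr2 finger 2: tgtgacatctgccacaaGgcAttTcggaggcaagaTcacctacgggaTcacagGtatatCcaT
Osr1 finger 3: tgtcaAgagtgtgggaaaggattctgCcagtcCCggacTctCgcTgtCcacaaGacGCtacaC
Osr2 finger 3: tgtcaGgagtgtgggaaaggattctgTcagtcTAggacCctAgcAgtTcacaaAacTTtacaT

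These fingers differed at 8 and 12 of their 63 bases, and no difference changed a residue. Over their whole length, the longest run of bases that the transcripts shared was 23. Of 1963 windows of 50 bases, the length of a read, in the *Osr1* transcript, 0 were found in that of *Osr2* with at most 2 mismatches. The closest pair of windows had 4 mismatches, so that a read taken whole from one transcript would carry at least 4 in the other. Another coding isoform of *Osr2* is annotated. Its sequence and its number of zinc fingers were not compared here, and counts per gene do not separate isoforms.

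*Osr1* RNA was lower in GCE/GCE cells and was still measured there. It had 4987 and 4135 counts in GCE/+ replicates 1 and 2 and 691 and 852 counts in GCE/GCE replicates 1 and 2. In CPM, which are counts scaled to a common library size with TMM factors, its levels were 81.9 and 79.1 in GCE/+ cells against 11.9 and 13.9 in GCE/GCE cells. Both GCE/GCE samples lay far below both GCE/+ samples. The 95% Poisson intervals, which cover counting error only, were 79.6 to 84.2 and 76.7 to 81.5 CPM in GCE/+ cells, and 11.03 to 12.8 and 13.0 to 14.9 CPM in GCE/GCE cells. The means were 80.5 ± 2.00 CPM (SD, n = 2) and 12.9 ± 1.42 CPM (SD, n = 2).

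The log2 fold change of *Osr1* was -2.64 (SE 0.11, 95% interval -2.88 to -2.40). Its p by the quasi-likelihood test of edgeR, after Benjamini-Hochberg adjustment over 15645 genes, was 5.94e-05. In linear terms, GCE/GCE cells held 16.0% of the *Osr1* level of GCE/+ cells (interval 13.6 to 19.0%). This was the gene with the lowest p of all tested genes, with rank 7 by the size of its fall. At an adjusted p under 0.1, the limit used for every call here, 1.82% of all tested genes passed, 0.895% of them higher and 0.927% lower in GCE/GCE cells. The 14 alternative fits gave *Osr1* log2 fold changes between -2.76 and -2.54, and each passed that limit. Since counts are per gene, they do not show from which exons the *Osr1* reads of GCE/GCE cells came. Nor do they show how much of the *Osr1* level of GCE/+ cells came from their GCE allele.

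*Osr2* RNA did not differ between the genotypes beyond the spread of the replicates. It had 5225 and 3501 counts in GCE/+ replicates 1 and 2 and 5370 and 4947 counts in GCE/GCE replicates 1 and 2. Its levels were 85.8 and 67.0 CPM in GCE/+ cells against 92.5 and 80.8 CPM in GCE/GCE cells. The groups overlapped, since GCE/+ replicate 1 lay above GCE/GCE replicate 2, and GCE/+ replicate 2 was the lowest sample. The Poisson intervals were 83.5 to 88.2 and 64.8 to 69.2 CPM in GCE/+ cells, against 90.0 to 95.01 and 78.6 to 83.1 CPM in GCE/GCE cells, so that the difference between GCE/+ replicates was larger than counting error. The means were 76.4 ± 13.3 CPM (SD, n = 2) and 86.7 ± 8.27 CPM (SD, n = 2).

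The log2 fold change of *Osr2* was 0.18 (SE 0.13, adjusted p = 0.754 in the same edgeR test). Its 95% interval ran from -0.11 to 0.47, or from 92.9% to 139% of the GCE/+ level, so a moderate rise is within the range of these data. Of all tested genes, 68.4% had a smaller change in either direction. The point estimate rested on GCE/+ replicate 2. Without that sample the log2 fold change was 0.01 (interval -0.22 to 0.25), and without GCE/+ replicate 1 it was 0.37 (interval 0.13 to 0.60, adjusted p = 0.238, edgeR). Without GCE/GCE replicate 1 it was 0.07 and without GCE/GCE replicate 2 it was 0.28, and none of the 14 alternative fits passed the limit.

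**Figure D1:**
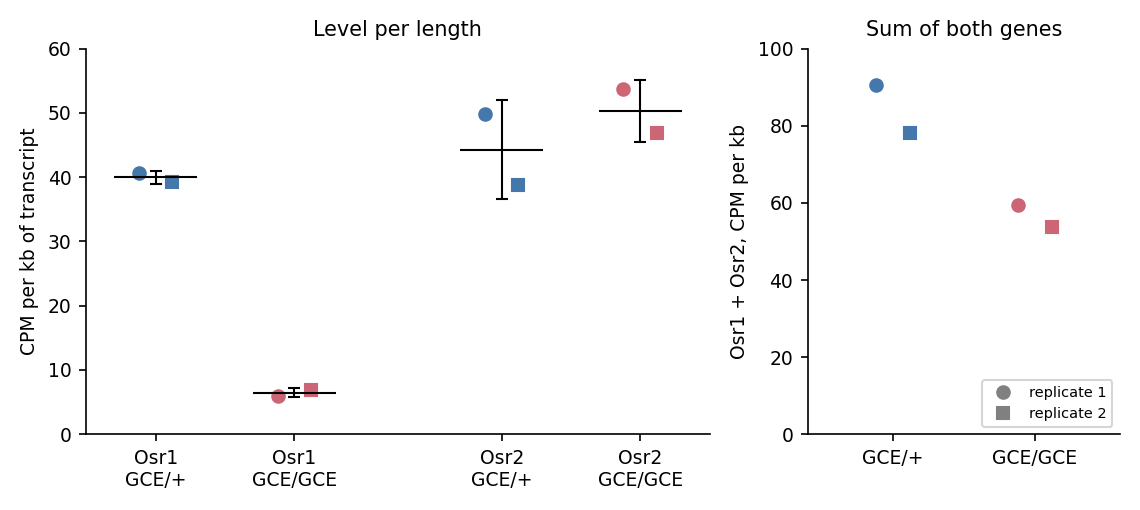
Level of *Osr1* and *Osr2* in each sample in CPM per kb of transcript, with circles for replicate 1, squares for replicate 2, and lines and bars for the mean and SD of 2 samples (left), and the sum of both genes on the same scale (right). *Osr1* falls from about 40 to under 7 CPM per kb, the *Osr2* samples of the genotypes overlap, and both sums in GCE/GCE cells lie below both in GCE/+ cells.

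The replicates of the genes were compared with those of all tested genes. Between GCE/+ replicates, log2 CPM of *Osr1* differed by 0.05 and that of *Osr2* by 0.36, beside a median of 0.15 over all tested genes. Thus 81.8% of the tested genes differed less than *Osr2* between these samples, and 17.5% differed less than *Osr1*. Between GCE/GCE replicates the differences were 0.23 for *Osr1* and 0.19 for *Osr2*, beside a median of 0.11. The fall of *Osr1* between genotypes was larger than each of these, and the log2 fold change of *Osr2* was smaller than the difference between its own GCE/+ replicates.

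**Figure D2:**
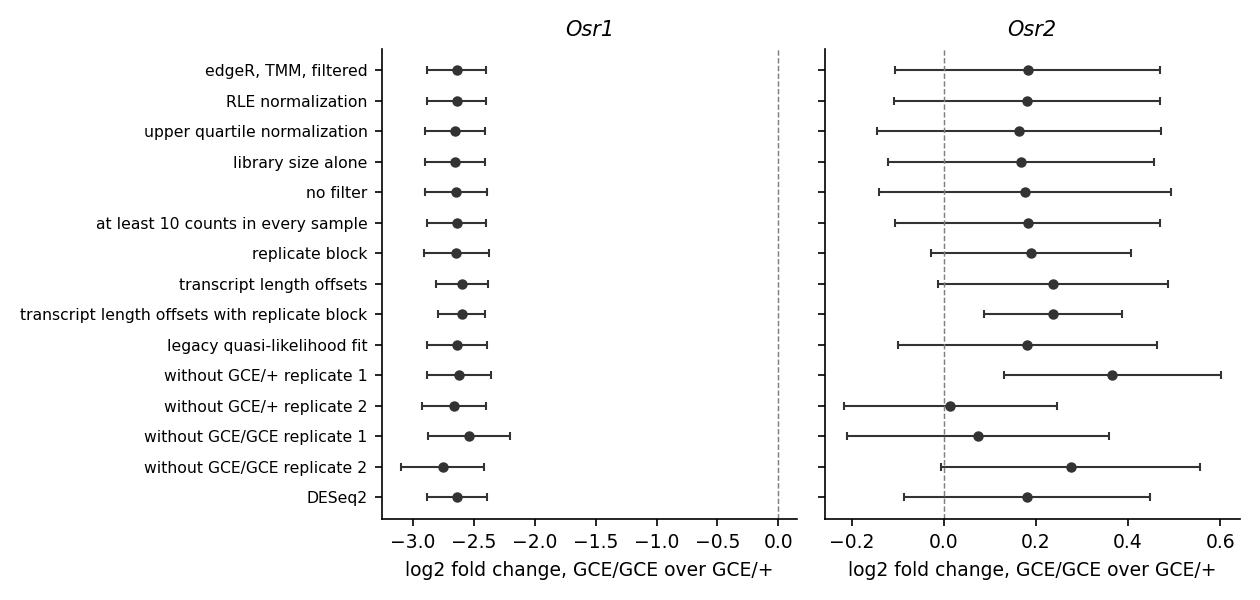
Log2 fold change of *Osr1* (left) and *Osr2* (right) between GCE/GCE and GCE/+ cells with its 95% interval (bars) in the fit reported here (top) and in 14 alternatives, on a separate axis for each gene. All values for *Osr1* lie between -2.76 and -2.54, whereas those for *Osr2* lie between 0.01 and 0.37 and move most when a GCE/+ sample is left out.

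To set the genes beside each other, CPM were divided by the length of the main transcript in kb. This treats the *Osr1* reads of GCE/GCE cells as spread over that whole transcript, which counts per gene do not show. The ratio, share and sum of the paralogs below rest on the same assumption. On this scale *Osr1* had a level of 40.7 and 39.3 in GCE/+ cells against 5.92 and 6.92 in GCE/GCE cells. *Osr2* had a level of 49.8 and 38.8 in GCE/+ cells against 53.7 and 46.9 in GCE/GCE cells. In GCE/+ replicate 1 *Osr2* was the higher of the genes, and in GCE/+ replicate 2 they were nearly equal, so that with 1 unmodified *Osr1* allele the order of the levels did not hold across replicates. In both GCE/GCE samples *Osr2* was higher by far.

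The ratio of *Osr2* to *Osr1* per length was 1.22 and 0.988 in GCE/+ cells against 9.07 and 6.78 in GCE/GCE cells. *Osr2* thus made up 55.0% and 49.7% of the summed level in GCE/+ cells, against 90.1% and 87.1% in GCE/GCE cells. The ratio was on average 7.13-fold higher in GCE/GCE cells, a difference of 2.83 on the log2 scale. Since a ratio within a library does not depend on library scaling, normalization cannot move it. It recombines the counts behind the fold changes above and is not separate evidence. An exact permutation test over the samples, two-sided, gave p = 0.333, which is the smallest value that 2 samples against 2 allow.

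The summed level of the paralogs per kb was 90.5 and 78.1 in GCE/+ cells against 59.6 and 53.8 in GCE/GCE cells. Both GCE/GCE sums lay below both GCE/+ sums, and the average sum in GCE/GCE cells was 0.673 of that in GCE/+ cells, or -0.57 on the log2 scale (exact permutation test, two-sided, p = 0.333, again the smallest possible). Dividing by coding length gave a log2 difference of -0.67 and no division by length gave -0.65.

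Whether the paralog made up for the lost *Osr1* RNA was asked on the same scale. The mean *Osr1* level fell by 33.6 CPM per kb and the mean *Osr2* level was 5.96 CPM per kb higher in GCE/GCE cells. With the interval of the *Osr2* fold change applied to its GCE/+ mean, the difference in *Osr2* ran from -3.15 to 17.1 CPM per kb. The upper end is 50.8% of the fall in *Osr1*. To keep the sum at its GCE/+ mean, *Osr2* would have had to reach 77.9 CPM per kb, a log2 rise of 0.81, which lies above the interval of -0.11 to 0.47 and above the highest end of the interval in any alternative, 0.60. This takes the GCE/+ means and the fall in *Osr1* as exact, though the GCE/+ mean of *Osr2* was 44.3 ± 7.73 CPM per kb (SD, n = 2). On that basis a full replacement of the lost transcripts by *Osr2* RNA was outside the interval, while a partial one was within it. Protein levels were not analysed here, nor was it tested whether the *Osr1* RNA left in GCE/GCE cells is intact.

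The levels were then placed among other genes. Of 15470 tested genes with a known transcript length, ranked from the highest level per length, *Osr1* had rank 1655 and 1709 in GCE/+ cells against rank 8247 and 7750 in GCE/GCE cells. *Osr2* had rank 1315 and 1739 in GCE/+ cells against rank 1141 and 1407 in GCE/GCE cells. *Osr1* therefore moved from the top 10.7% and 11.05% of genes to near the middle of the ranking, at 53.3% and 50.1%, while *Osr2* stood between the top 7.38% and 11.2% in all 4 samples.

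A list of transcription factors of limb connective tissue and mesenchyme, with the paralogs added, held 51 genes. *Osr1* stood at rank 11 and 12 of these in GCE/+ cells and at rank 42 and 41 in GCE/GCE cells by level per length. *Osr2* stood at rank 9 and 13 in GCE/+ cells and at rank 7 and 9 in GCE/GCE cells. In GCE/+ cells the paralogs thus stood beside *Hoxa10*, *Snai2* and *Ebf2* in level. By coding length the ranks of *Osr1* were 13 and 13, then 43 and 43, and without division by length they were 22 and 25, then 44 and 44.

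**Figure D3:**
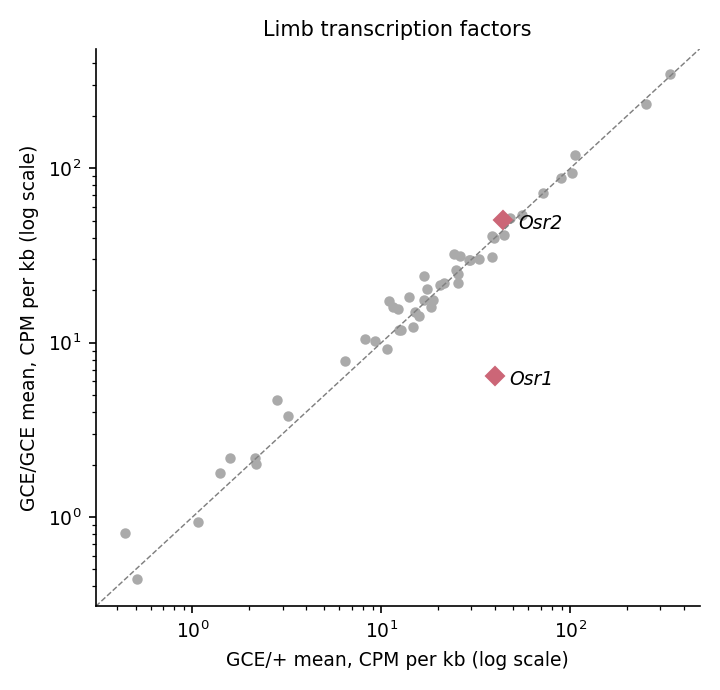
Mean level per kb of transcript of 51 limb transcription factors in GCE/+ cells (x, log scale) and GCE/GCE cells (y, log scale), with 1 point for each gene, n = 2 samples per mean, and a dashed line of equal level. *Osr2* lies near the line, and *Osr1* lies below it, at 40.0 CPM per kb in GCE/+ cells and 6.42 in GCE/GCE cells.

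The genes around each paralog were examined because one of them is the site of the knock-in. Of the 10 genes on each side of *Osr1*, 14 were tested and 0 passed the limit in edgeR's quasi-likelihood test, where 1.82% of all genes passed, or in DESeq2. At an unadjusted p under 0.05, which 10.5% of all tested genes had (5.62% higher and 4.86% lower), there was 1, *Matn3*. Their median log2 fold change was 0.02, beside 0.0033 over all tested genes. The adjacent genes gave almost no reads. *1700022H16Rik*, an RNA annotated on the opposite strand that overlaps the annotated extent of *Osr1* by 0.469 kb, had 0 counts in all 4 samples. *Nt5c1b*, a cytosolic nucleotidase gene at 788 kb, had at most 1 count. *Matn3*, a cartilage matrix gene, had the highest value among the tested neighbours, with 2.79 and 5.32 CPM in GCE/+ cells against 6.48 and 5.93 CPM in GCE/GCE cells (log2 fold change 0.62, adjusted p = 0.473 by edgeR).

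Around *Osr2*, 15 of 20 neighbours were tested and 0 passed in the same test or in DESeq2, with 1 at an unadjusted p under 0.05, where the share over all tested genes was 10.5%. The median log2 fold change was 0.15. The adjacent gene on the 5′ side was *Stk3*, a kinase of the Hippo pathway at 117 kb, with 58.1 and 57.1 CPM in GCE/+ cells against 57.5 and 60.4 CPM in GCE/GCE cells. The adjacent gene on the other side, *BC048602*, at 3.70 kb, had at most 3 counts and was not tested. The lowest adjusted p was that of *Vps13b*, which encodes a lipid transfer protein (log2 fold change 0.29, SE 0.09, adjusted p = 0.216 by edgeR). The paralogs sit in neighbourhoods that are themselves paralogous, since *Laptm4a*, *Matn3* and *Kcns3* near *Osr1* have relatives in *Laptm4b*, *Matn2* and *Kcns2* near *Osr2*. None of these 6 passed.

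**Figure D4:**
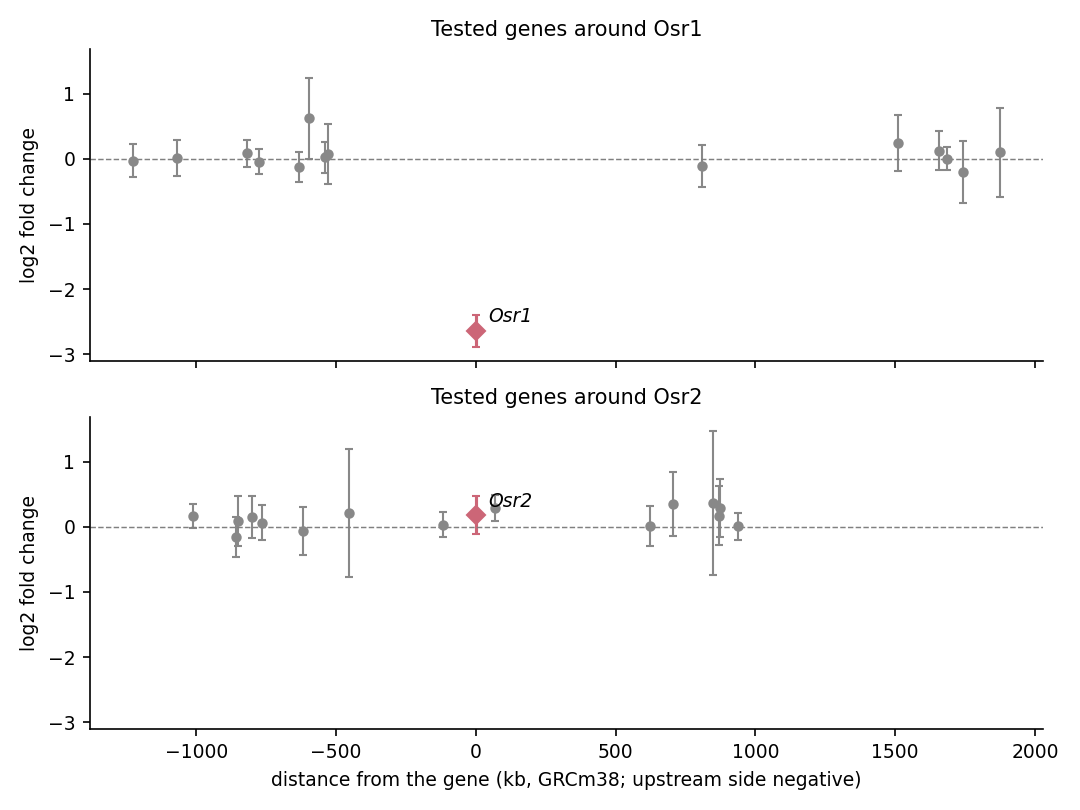
Log2 fold change between GCE/GCE and GCE/+ cells, with its 95% interval (bars), of the tested genes among the 10 on each side of *Osr1* (top) and *Osr2* (bottom), against distance from the gene in kb. *Osr1* at -2.64 stands alone in its neighbourhood, where the other values run from -0.20 to 0.62, and *Osr2* lies among its neighbours, which run from -0.16 to 0.36.

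Genes whose values over the 4 samples were closest to those of the paralogs were found by the root mean square difference of centred log2 CPM, over the 13469 tested genes that averaged 1 CPM or more. For *Osr1* these were *H2-T10*, a class I major histocompatibility gene (0.318), *Gm8801*, a predicted gene (0.444), *2810047C21Rik1* (0.530), and *Ccl9* (0.635) and *Cxcl13* (0.644), which encode chemokines. No gene lay within 0.1 of *Osr1*. These genes were themselves called lower in GCE/GCE cells (log2 fold changes from -3.11 to -1.42), so their likeness to *Osr1* is not separate from that test. *H2-T10* had 6.24 and 5.49 CPM in GCE/+ cells against 0.775 and 0.588 CPM in GCE/GCE cells, and belongs to a family of near-identical genes among which reads can be split. For *Osr2* the closest included *Rassf5*, a Ras-binding protein gene (0.018), *Pter* (0.023), *Snx15*, a sorting nexin gene (0.028), and *Pcdhgb5*, a protocadherin gene whose last exons are shared across its cluster (0.028). As many as 255 genes lay within 0.1 of *Osr2*, so this likeness, over 4 samples, singles out no gene.

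Groucho and Tle proteins are corepressors that odd-skipped proteins of *Drosophila* are known to recruit when they repress genes. Of 6 genes of this family 6 were tested, with a median log2 fold change of -0.02. In edgeR's quasi-likelihood test 0 passed, beside 1.82% of all tested genes, and 0 passed in DESeq2. At an unadjusted p under 0.05 in edgeR there were 0, beside 10.5% of all tested genes. *Tle1* had 83.4 and 80.7 CPM in GCE/+ cells against 88.0 and 89.0 CPM in GCE/GCE cells (log2 fold change 0.11, adjusted p = 0.764 by edgeR). *Tle6* was the least abundant of the members named here, with 4.76 and 4.05 CPM in GCE/+ cells against 3.84 and 4.25 CPM in GCE/GCE cells (log2 fold change -0.13, adjusted p = 0.927 by edgeR).

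Among genes of the intermediate mesoderm and the nephron progenitors, the tissue where *Osr1* is best known, 15 of 18 were tested, with a median log2 fold change of 0.07. Of these 3 passed higher and 0 lower in GCE/GCE cells, beside 0.895% and 0.927% of all tested genes. *Eya1*, a coactivator that binds sine oculis homeobox proteins, had 13.9 and 12.5 CPM in GCE/+ cells against 25.1 and 22.1 CPM in GCE/GCE cells (log2 fold change 0.83, SE 0.12, adjusted p = 0.0309 by edgeR). *Foxc1*, a forkhead factor of mesenchyme, had 15.8 and 16.8 CPM in GCE/+ cells against 26.1 and 28.9 CPM in GCE/GCE cells (0.76, SE 0.11, adjusted p = 0.030 by edgeR). *Six2*, the homeobox factor that keeps nephron progenitors undifferentiated, had 22.7 and 24.0 CPM in GCE/+ cells against 33.5 and 40.4 CPM in GCE/GCE cells (0.66, SE 0.12, adjusted p = 0.0458 by edgeR). In all 3 genes both GCE/GCE samples were above both GCE/+ samples. *Six2* no longer passed without GCE/+ replicate 1 (0.62, adjusted p = 0.112 by edgeR), while *Eya1* and *Foxc1* passed in all 14 alternatives. The median of the list was 0.13 without GCE/+ replicate 1, 0.07 without GCE/+ replicate 2, 0.21 without GCE/GCE replicate 1 and 0.15 without GCE/GCE replicate 2.

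Of 18 genes of the joint interzone, where both paralogs are expressed, 17 were tested, with a median log2 fold change of 0.07. Of these 2 passed higher and 0 lower, beside 0.895% and 0.927% of all tested genes. Beside *Foxc1*, which is also on this list, they were *Enpp2*, the gene of the enzyme autotaxin, with 50.2 and 53.8 CPM in GCE/+ cells against 80.2 and 73.5 CPM in GCE/GCE cells (0.56, SE 0.09, adjusted p = 0.0328 by edgeR). *Enpp2* passed in all 14 alternatives. The median of the list was 0.17 without GCE/+ replicate 1, 0.08 without GCE/+ replicate 2, 0.06 without GCE/GCE replicate 1 and 0.14 without GCE/GCE replicate 2.

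The 13 genes of the palate and teeth, where *Osr2* is best known, had a median log2 fold change of -0.01. Of these 1 passed, lower, beside 0.927% of all tested genes lower and 0.895% higher. It was *Bmp4*, a growth factor that *Osr2* is known to restrict in tooth mesenchyme, with 53.8 and 51.96 CPM in GCE/+ cells against 40.2 and 41.0 CPM in GCE/GCE cells (-0.38, SE 0.08, adjusted p = 0.0988 by edgeR). It stood near the limit and passed in 7 of 14 alternatives. The study also found *Bmp4* lower in GCE/GCE cells of the same stage by quantitative PCR, on embryos other than those sequenced. DESeq2 called 2 genes of the list, 1 higher and 1 lower, as did edgeR with transcript length offsets. The log2 fold change of *Bmp4* was -0.36 without GCE/+ replicate 1, -0.37 without GCE/GCE replicate 1 and -0.40 without GCE/GCE replicate 2, and it did not pass in these fits. *Dlx5*, a homeobox gene of teeth and skeleton, had 4.96 and 3.25 CPM in GCE/+ cells against 6.79 and 9.21 CPM in GCE/GCE cells (0.96, SE 0.23, adjusted p = 0.125 by edgeR).

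Among the 49 other limb connective tissue transcription factors that were measured, all were tested, with a median log2 fold change of 0.03. Of these 3 passed higher and 0 lower, beside 0.895% and 0.927% of all tested genes. They were *Foxc1*, *Six2* and *Meox1*, a homeobox gene of somitic mesoderm, with 55.1 and 53.0 CPM in GCE/+ cells against 71.1 and 72.4 CPM in GCE/GCE cells (0.41, SE 0.08, adjusted p = 0.0695 by edgeR). *Meox1* no longer passed without GCE/GCE replicate 2 (adjusted p = 0.196 by edgeR). The median of the list was 0.09 without GCE/+ replicate 1, 0.03 without GCE/+ replicate 2, 0.08 without GCE/GCE replicate 1 and -0.02 without GCE/GCE replicate 2. DESeq2 called 8 genes of the list, where it called 502 genes in all against 285 in edgeR.

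The last list held 4 genes at whose loci the study tested Osr1 binding in chromatin. The study chose them on these samples, so their direction here is not independent evidence. The study reported binding at *Col6a1*, *Col6a3* and *Cxcl12*, with none reported for *Lum*. By quantitative PCR on embryos other than those sequenced, the study also found each of these genes lower in GCE/GCE cells at the same stage. All 4 had a negative log2 fold change, with a median of -0.32, and 1 passed, lower, beside 0.927% of all tested genes. *Cxcl12*, the chemokine that binds the receptor Cxcr4, had 540 and 602 CPM in GCE/+ cells against 414 and 420 CPM in GCE/GCE cells (-0.45, SE 0.10, adjusted p = 0.0852 by edgeR). It no longer passed without GCE/GCE replicate 1 (adjusted p = 0.140) or without GCE/GCE replicate 2 (adjusted p = 0.172, edgeR). *Lum*, which encodes the matrix proteoglycan lumican, had 481 and 402 CPM in GCE/+ cells against 346 and 350 CPM in GCE/GCE cells (-0.34, SE 0.11, adjusted p = 0.233 by edgeR). In DESeq2, where 502 genes passed in all, 2 genes of the list passed. Without GCE/+ replicate 2 the median of the list was -0.41.

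**Figure D5:**
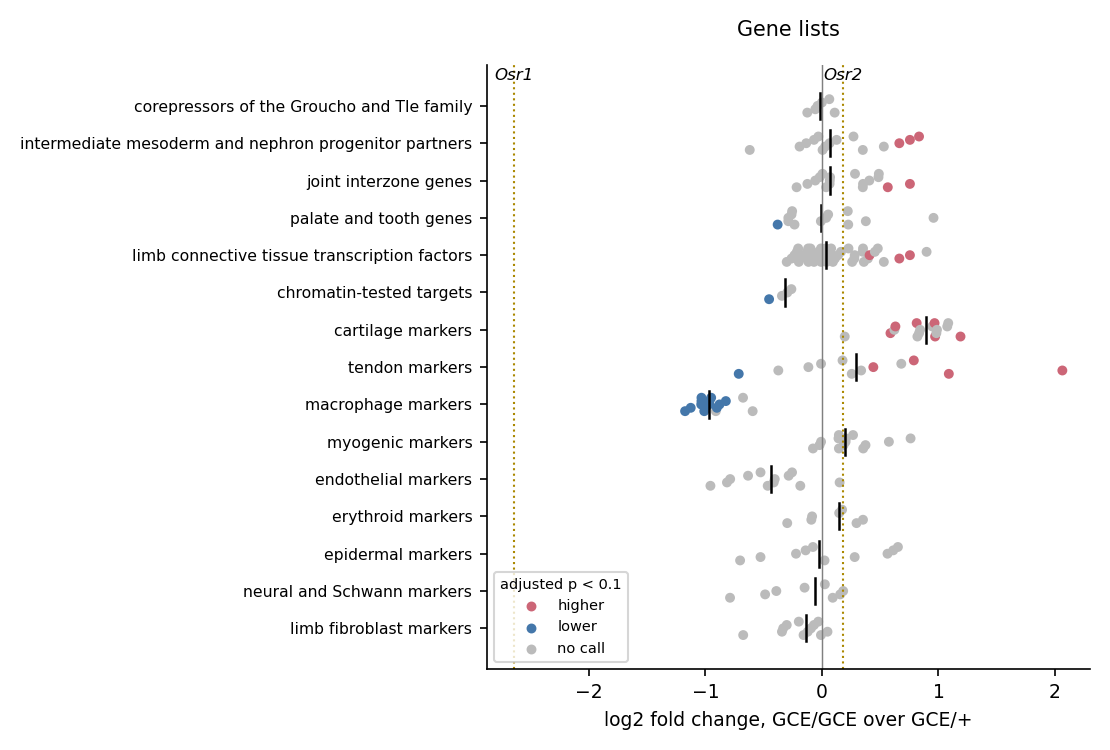
Log2 fold change between GCE/GCE and GCE/+ cells of every tested member of each gene list (points), with the median of the list (black line), calls at an adjusted p under 0.1 in colour, and *Osr1* and *Osr2* as dotted lines. The lists of partners and tissues of the paralogs centre near 0, with medians from -0.02 to 0.07, whereas cartilage markers centre at 0.89 and macrophage markers at -0.97.

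The cells were labelled as mesenchymal, and the fibroblast markers summed to between 22219 and 24634 CPM in GCE/+ cells and between 18946 and 21722 CPM in GCE/GCE cells. Of 12, 0 passed in edgeR, beside 1.82% of all tested genes, and 3 in DESeq2, which called 502 genes in all. Of these 12 markers 11 had a negative log2 fold change, with a median of -0.14, and 3 were lower at an unadjusted p under 0.05, beside 4.86% of all tested genes. The fibroblast median was -0.05 without GCE/+ replicate 1, -0.26 without GCE/+ replicate 2, -0.26 without GCE/GCE replicate 1 and -0.04 without GCE/GCE replicate 2. Of 16 cartilage markers, 6 passed higher, beside 0.895% of all tested genes. The cartilage markers summed to 772 and 1206 CPM in GCE/+ cells against 1674 and 1852 CPM in GCE/GCE cells. Tendon markers passed higher for 4 and lower for 1 of 12, beside 0.895% and 0.927% of all tested genes. Their sums ran from 1953 to 2056 CPM in GCE/+ cells and from 2107 to 2507 CPM in GCE/GCE cells. Of 16 macrophage markers, 13 passed lower, beside 0.927% of all tested genes. Their sums were 442 and 451 CPM in GCE/+ cells against 278 and 194 CPM in GCE/GCE cells. No cartilage or macrophage marker was at 0 in any sample. With the replicate number as a block, where 290 genes passed in all, 12 cartilage markers passed. Without the filter on low counts, where 127 genes passed, 0 cartilage and 7 macrophage markers did. The cartilage and macrophage medians were 0.55 and -0.94 without GCE/+ replicate 1, and 1.33 and -0.94 without GCE/+ replicate 2. They were 0.94 and -1.26 without GCE/GCE replicate 1, and 0.90 and -0.72 without GCE/GCE replicate 2.

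Markers of muscle, endothelium, erythroid cells, epidermis and nerve passed in 0 of 14, 12, 7, 10 and 8 tested genes in edgeR. Of all tested genes 1.82% passed. DESeq2, which called 502 genes in all, called 1, 2, 0, 1 and 1 of these markers. At an unadjusted p under 0.05 in edgeR, 3 muscle markers were higher, 7 endothelial markers were lower, 0 erythroid markers differed, 3 epidermal markers were higher and 1 was lower, and 1 nerve marker was lower, beside 5.62% of all tested genes higher and 4.86% lower. The median log2 fold change of the endothelial markers was -0.44, with -0.22 without GCE/+ replicate 1 and -0.66 without GCE/+ replicate 2. It was -0.65 without GCE/GCE replicate 1 and -0.29 without GCE/GCE replicate 2. The erythroid median was 0.90 without GCE/+ replicate 1, -0.24 without GCE/+ replicate 2, 0.24 without GCE/GCE replicate 1 and 0.02 without GCE/GCE replicate 2. With a sample left out, the medians ran from 0.0046 to 0.30 for muscle, from -0.10 to 0.23 for epidermal and from -0.20 to -0.02 for nerve markers. The part of these other cell types in the values of *Osr1* and *Osr2* was not tested, and in bulk RNA fewer cells of a type and less RNA per cell cannot be told apart. *Xist*, expressed from the inactive X chromosome of females, stood at 1135 CPM (counts divided by the library total) in the first GCE/GCE sample, whereas no other sample exceeded 2.64 CPM, so the GCE/GCE samples did not match in sex. The *Osr1* level of that sample was 11.9 CPM and that of the other GCE/GCE sample 13.9 CPM, and the *Osr2* levels were 92.5 and 80.8 CPM.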

How the data were processed

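Paired-end reads of 50 bp were aligned by the authors to mm9 using TopHat2, and HTSeq (intersection-strict) gave the fragment counts of each gene. Versions and the strand setting are not given in the sources used here, and the library kit does not mark strand. The deposited values are raw counts per gene symbol, without normalization. Total counts were 60534526 and 52121596 in GCE/+ and 58434455 and 61402140 in GCE/GCE samples, in which 3 counts amount to 0.0489 to 0.0576 CPM. Such floors and intervals cover counting error only.

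*Osr1*, *Osr2* and the gene lists were chosen with earlier results of these data known. Symbols were matched to GENCODE and RefSeq tables of GRCm38, 20882 directly and 1939 by a synonym, 98.0% of 23284. Coordinates, lengths and sequences come from GRCm38 and none were converted from mm9. Sequences were aligned with biopython 1.88.

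Genes were filtered with filterByExpr, which left 15645, normalized by TMM and tested, GCE/GCE against GCE/+ and two-sided, by the quasi-likelihood method of edgeR 4.0.16 (R 4.3.3, legacy = FALSE) and Benjamini-Hochberg adjustment at 0.1, the limit in the study's methods. Standard errors were derived from the F statistic. The prior had 6.381 degrees of freedom, and the common biological coefficient of variation was 0.107. Levels per length are CPM divided by the main transcript in kb. The sum and ratio of the paralogs were compared by exact permutation tests over samples (scipy 1.17.1). Samples are single embryos per the study's methods, and groups and replicate numbers come from the labels. The procedure was tested on simulated data. Likeness used log2(CPM + 0.01).

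Named genes were *Osr1*, *Osr2*, the members of each list past 0.1 (at most 4, or the 2 with the lowest p where fewer than 2 passed), adjacent genes, and the 5 genes closest to each paralog in pattern. A gene and a stretch of sequence that these rules cover are not reported here. For marker lists, counts, sums and medians are given in the text. Neighbours beyond these, genes near the paralogs in level and *Xist* were named after their values were seen. Alternatives were DESeq2 1.42.0, other normalizations and filters, a replicate block, offsets for transcript length without and with the block, an adjusted p under 0.05, other length divisors, and leaving out each sample. The legacy quasi-likelihood fit was added after seeing the data. Tables were made in pandas 2.3.3 with numpy 2.4.6, and plots in matplotlib 3.10.9, under Python 3.11.15.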

Additional observations from a re-analysis of the deposited data

How the results depend on the processing

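The direction and call of *Osr1* and of *Osr2* were kept in all 14 alternatives, and the direction of their sum in all 6 of its alternatives. The direction of their ratio was kept with each sample left out. Other length divisors cancel in the genotype difference of the log2 ratio, which stays at 2.83, so they do not test it. With all samples kept, adjusted p ran from 6.25e-95 (DESeq2) to 0.000935 (edgeR) for *Osr1*. For *Osr2* it ran from 0.157 (edgeR) to 0.99995 (DESeq2). The lowest value for *Osr2* came from transcript length offsets with the replicate block (log2 fold change 0.24, interval 0.09 to 0.39). Leaving out a sample gave log2 differences from 2.62 to 3.04 for the ratio and from -0.68 to -0.46 for the sum. Where a genotype was left with 1 sample, that sample was assumed to vary like the others. The median over all tested genes moved by less than 0.1 under every scaling.

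The number of genes past the limit, 285, was less stable. It was 127 without the filter, 483 when the replicate block was joined to transcript length offsets, 502 with DESeq2 and 130 at an adjusted p under 0.05. Leaving out a sample gave 199 to 961, with 199 without GCE/+ replicate 1, 961 without GCE/+ replicate 2, 748 without GCE/GCE replicate 1 and 409 without GCE/GCE replicate 2. The cause was not tested.

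The labels number the replicates 1 and 2 in each genotype, but same-numbered samples did not deviate together (correlation -0.003 over 11180 genes), and nothing in the labels pairs them. With the replicate block 290 genes passed, the log2 fold change of *Osr1* was -2.64 and that of *Osr2* 0.19 (interval -0.03 to 0.41). *Bmp4*, *Meox1* and *Cxcl12* did not pass with the block, at adjusted p of 0.151, 0.110 and 0.112 (edgeR), and cartilage markers past the limit went from 6 to 12, with and without the length offsets. Without the filter *Six2*, *Bmp4*, *Meox1* and *Cxcl12* did not pass. With 2 samples for each genotype, the fit reported here could not resolve a difference in *Osr2* inside its interval of -0.11 to 0.47. That interval depended on the settings, and was 0.09 to 0.39 with transcript length offsets and the block.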
